A study of Homo sapiens with 6 samples.

Results

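The DDX and DHX genes encode DEAD-box and DEAH-box RNA helicases, and 51 of the 23024 gene symbols of the deposited expression table belong to them here. They were chosen by symbol alone: DDX or DHX, a number and at most a letter, with DDX58, DDX60 and the Y-linked DDX3Y left out. The rule reads no values, but the family was picked as a subject with the results of this same contrast known. Its counts are therefore given as a description and nothing about chance is read from them. RNA sequencing covered 3 libraries of 5637 cells carrying a short hairpin RNA that lowers RAD51C (sh-RAD51C) and 3 libraries named NC, whose genotype label is WT. The line 5637 comes from a bladder carcinoma. The labels describe all 6 as transfected cells of this line and give neither the hairpin sequence, the meaning of NC, a time point, nor the number of clones or cultures behind a group. P-values thus measure the spread between libraries, which may be technical.

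RAD51C, the targeted gene, had 3.51, 3.09 and 2.95 FPKM in sh-RAD51C libraries 1, 2 and 3, against 14.7, 13.2 and 13.6 FPKM in NC libraries 1, 2 and 3. Its level was 23% of the NC level (log2 fold change -1.83 ± 0.064 SE, limma adjusted p = 7.16e-09; exact two-sided permutation p = 0.1, the smallest that 3 against 3 allows). Depth was even, with 37104318 to 38079825 inferred reads per sh-RAD51C library and 36068282 to 37560184 per NC library. Library sh-RAD51C 1 stood apart from the other two of its group, with a chi-square per degree of freedom of 12.58 and 14.31 against them, where all other within-group pairs gave 3.69 to 6.39. All 9 markers of a bladder epithelial line had a mean of at least 1 FPKM, with a summed level of 2664 to 2766 FPKM in sh-RAD51C and 2905 to 2997 FPKM in NC. None of 5 endothelial markers reached 1 FPKM. COL1A1 and THY1 were the 2 of 6 fibroblast markers that did (list sum 12.1 to 12.9 FPKM in sh-RAD51C, 14.6 to 14.9 FPKM in NC), with COL1A2 and DCN near 0. Of 3 blood cell markers in the table, CD14 alone reached it (sum 0.377 to 0.962 FPKM in sh-RAD51C, 1.45 to 1.77 FPKM in NC), and PTPRC and ITGAM were near 0. The part of these differences in the helicase results was not tested.

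DEAD-box and DEAH-box proteins spend ATP to open short RNA duplexes, pull strands apart or strip proteins from RNA. DEAD-box members mostly act locally on a duplex, whereas DEAH-box members tend to move along a strand and are often switched on by partner proteins that carry a G-patch domain. Together they serve nearly every step of an RNA's life, and many of them work in the nucleolus, where ribosomal RNA is folded and cut.

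Averaged across all libraries, 46 of the 51 genes reached 1 FPKM and were tested in a limma fit of the 11152 genes that did. A gene is called here when its adjusted p, over all of these genes, was under 0.05. Among the 46, 24 were called higher in sh-RAD51C, 3 were called lower and 19 were not called. Over all genes tested, 49.4% were called, 23.2% higher and 26.2% lower. Every sh-RAD51C library lay above every NC library for 24 of the 46 helicases (27.6% of all genes tested) and below every NC library for 5 (30.8% of all genes tested), and the groups overlapped for 17. The median log2 fold change was 0.13 over the 46 and -0.01 over all genes tested, and 36 of the 46 estimates were positive. Every log2 fold change of this fit is a difference in log2(FPKM + 1), a scale that compresses the changes of genes at low levels. Changes given as a ratio, as -fold or in percent come from means or sums of FPKM and are not on that scale. In bulk RNA, fewer cells with a transcript and less of it per cell cannot be told apart.

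By branch, 16 (51.6%) were called higher and 1 (3.2%) lower of 31 DDX genes tested. Of 15 DHX genes tested, 8 (53.3%) were called higher and 2 (13.3%) lower. Over all genes tested, 23.2% were called higher and 26.2% lower. Summed over the 46 tested genes, the level was 1653, 1693 and 1707 FPKM in sh-RAD51C libraries 1, 2 and 3, against 1560, 1562 and 1578 FPKM in NC libraries 1, 2 and 3. These sums did not overlap, and their means were 1684 ± 27.8 FPKM in sh-RAD51C and 1567 ± 9.79 FPKM in NC (SD, n = 3 each), a ratio of 1.07. Without library sh-RAD51C 1, 25 helicases were called higher and 2 lower. In that fit 49.1% of all genes tested were called, 23.3% of them all as higher.

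**Figure D1:**
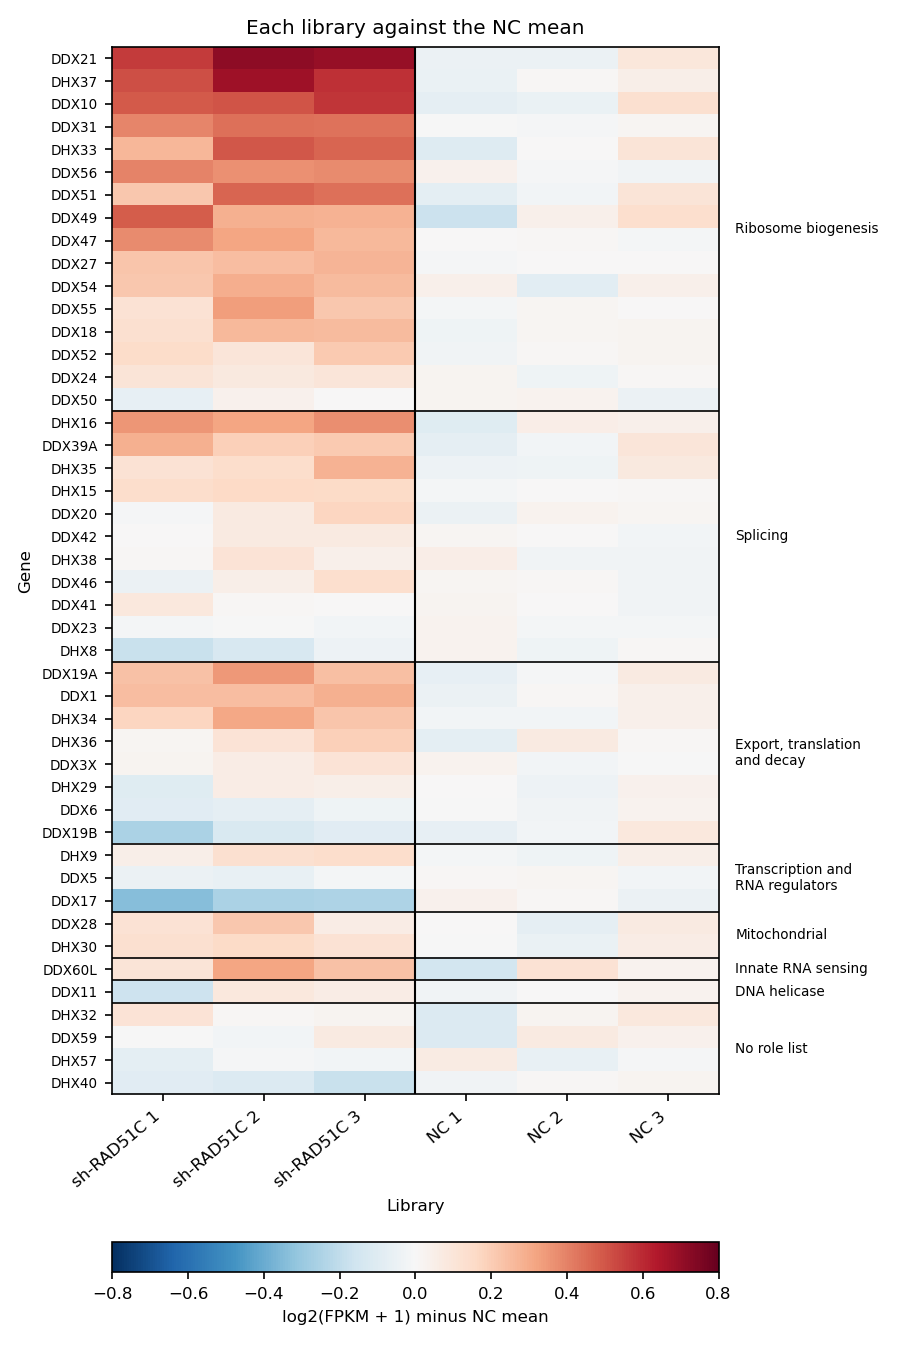
Each row is 1 of the 46 helicases tested, grouped by role, and each column a library, with the 3 sh-RAD51C libraries left of the 3 NC libraries. Colour gives log2(FPKM + 1) minus the mean of the NC libraries, and red cells fill the sh-RAD51C columns for 15 of the 16 ribosome biogenesis genes, while DDX17 is the deepest blue.

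Ribosome biogenesis held most of the rises. Of the 16 helicases listed for making ribosomal subunits, 15 were called higher in sh-RAD51C (93.8%, against 23.2% of all genes tested). None was called lower (against 26.2% of all genes tested), and DDX50 was not called. Their median log2 fold change was 0.33. Their summed level was 432, 448 and 446 FPKM in sh-RAD51C libraries 1, 2 and 3, against 344, 346 and 356 FPKM in NC libraries 1, 2 and 3, without overlap and with a ratio of means of 1.27. This list was assembled with the values already known, so its count is no independent evidence of a direction. Leaving out any 1 library left 13 or 14 of the 16 called higher, 14 without sh-RAD51C 1. In these fits 19.2% to 23.3% of all genes tested were called higher.

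The largest estimate belonged to DDX21, a nucleolar helicase that acts in transcription and processing of ribosomal RNA (chr10:68956128-68985073, plus strand, in the GENCODE 29 annotation of GRCh38). DDX21 had 61.7, 69.1 and 68.2 FPKM in sh-RAD51C libraries 1, 2 and 3, against 40.3, 40.3 and 44.4 FPKM in NC libraries 1, 2 and 3. It rose 1.59-fold (log2 fold change 0.66 ± 0.053 SE, adjusted p = 2.19e-06), and the lowest sh-RAD51C library was far above the highest NC library. DHX37 releases the U3 small nucleolar RNA during maturation of the small subunit (chr12:124946825-124989122, minus strand). DHX37 had 9.48, 10.7 and 10.0 FPKM in the sh-RAD51C libraries, against 6.07, 6.36 and 6.55 FPKM in the NC libraries, also without overlap (log2 fold change 0.59 ± 0.056 SE, adjusted p = 7.46e-06). DDX10, whose yeast counterpart acts in small subunit processing, had 11.7, 11.8 and 12.4 FPKM in sh-RAD51C and 7.58, 7.71 and 8.86 FPKM in NC. Its log2 fold change was 0.52 ± 0.059 SE (adjusted p = 3.24e-05), and NC 3 was the highest of the NC libraries.

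DDX31, a nucleolar helicase related to a yeast factor of the large subunit, had 5.70, 5.93 and 5.91 FPKM in sh-RAD51C and 4.09, 4.08 and 4.16 FPKM in NC. It had the tightest NC replicates of the 8 genes with the largest rises, and the groups were clearly apart (log2 fold change 0.42 ± 0.052 SE, adjusted p = 5.99e-05). DHX33, which takes part in ribosomal RNA transcription, had 11.1, 13.2 and 12.9 FPKM in sh-RAD51C and 8.37, 9.06 and 9.80 FPKM in NC (log2 fold change 0.41 ± 0.071 SE, adjusted p = 6.93e-04). Its lowest value among sh-RAD51C libraries was that of library 1. DDX56, a nucleolar helicase of large subunit assembly, had 60.1, 58.9 and 59.3 FPKM in sh-RAD51C and 46.6, 45.2 and 44.5 FPKM in NC. The replicates of DDX56 were close together, with an SD of 0.605 FPKM in sh-RAD51C and 1.07 FPKM in NC, and its log2 fold change was 0.38 ± 0.034 SE (adjusted p = 5.54e-06).

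DDX51, known in mouse cells for freeing the U8 small nucleolar RNA from the ribosomal precursor, had 11.2, 13.5 and 13.3 FPKM in sh-RAD51C and 8.95, 9.34 and 10.3 FPKM in NC (log2 fold change 0.37 ± 0.072 SE, adjusted p = 0.00134). DDX49 had 18.9, 16.3 and 16.2 FPKM in sh-RAD51C and 11.6, 13.6 and 14.6 FPKM in NC, so that both groups were spread and still did not overlap (log2 fold change 0.35 ± 0.078 SE, adjusted p = 0.00345). DDX18, the counterpart of the yeast factor Has1 and the most abundant of the list in the mean over all 6 libraries, had 55.6, 61.2 and 60.8 FPKM in sh-RAD51C and 49.7, 51.4 and 51.6 FPKM in NC. It rose less (log2 fold change 0.21 ± 0.043 SE, adjusted p = 0.00165), with library sh-RAD51C 1 again the lowest of its group. The remaining members of this list are named to account for all of them, after their values were seen. DDX47, DDX27, DDX54 and DDX55 rose by 0.31, 0.25, 0.25 and 0.22 on the log2 scale, with adjusted p from 6.03e-05 to 0.00711 and no overlap between the groups. For DDX47, 36.5% of its exon bases overlap another gene in GENCODE 29, with APOLD1 on the same strand, so its value is uncertain.

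The smallest calls of the list were DDX52 and DDX24, counterparts of yeast factors of the small and the large subunit. DDX52 had 15.3, 14.7 and 16.0 FPKM in sh-RAD51C and 13.4, 13.8 and 13.9 FPKM in NC (log2 fold change 0.15 ± 0.045 SE, adjusted p = 0.0145). Its call was lost without sh-RAD51C 3 (adjusted p = 0.0526) and without NC 1 (adjusted p = 0.0573). DDX24 had 37.7, 37.1 and 37.6 FPKM in sh-RAD51C and 35.7, 34.3 and 35.3 FPKM in NC (log2 fold change 0.09 ± 0.035 SE, adjusted p = 0.0492). Its call sat at the threshold and was lost when any 1 of the 6 libraries was left out, with adjusted p from 0.0633 to 0.185. The DDX24 call held in 6 of the 15 alternatives run.

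**Figure D2:**
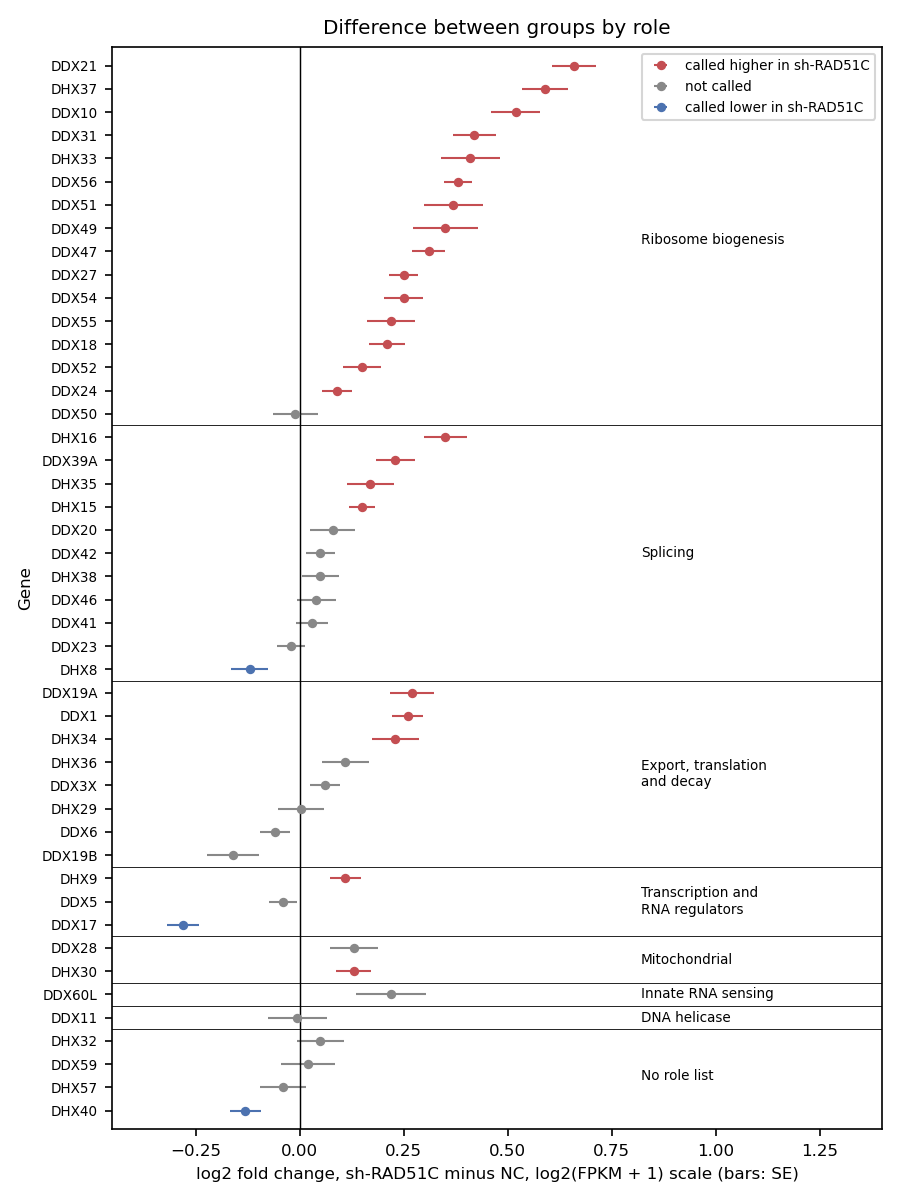
Points give the log2 fold change of each of the 46 helicases tested, sh-RAD51C minus NC on the log2(FPKM + 1) scale, with bars of 1 SE and colours for the limma call. The 15 red points of the ribosome biogenesis block run down to DDX24 at 0.09, and the 3 blue points are DDX17, DHX40 and DHX8.

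Promoter windows are shown for the 4 genes with the largest rises, which were picked by their values. Whether they share a regulator was not tested. They come from RefSeq on GRCh38.p14 and run from 250 bases before to 50 bases after an annotated start, which is counted as base 1. A set of 3 motifs was searched on both strands: CACGTG (the E-box that MYC and USF proteins bind), CCGGAAG (an ETS-type site) and GCATGCGC (an NRF1-type site). Capitals mark a match of a motif or of its reverse complement. DDX21 has a pair of windows on the plus strand, both shown: chr10:68955920-68956219 at the first annotated start, with an ETS-type site 60 bases before it and no E-box, and chr10:68956397-68956696 at the second, with an E-box 31 bases before it. The DHX37 window is chr12:124989082-124989381 (minus strand, ETS-type site at base 4 and E-box at base 42). The DDX31 window is chr9:132669934-132670233 (minus strand, its first annotated start, ETS-type site 58 and E-box 22 bases before the start), and the other two DDX31 windows, not shown, hold none of the motifs. The DDX10 window is chr11:108664819-108665118 (plus strand), with NRF1-type matches 212, 16 and 14 bases before the start, the last 2 on overlapping bases.
DDX21 first start: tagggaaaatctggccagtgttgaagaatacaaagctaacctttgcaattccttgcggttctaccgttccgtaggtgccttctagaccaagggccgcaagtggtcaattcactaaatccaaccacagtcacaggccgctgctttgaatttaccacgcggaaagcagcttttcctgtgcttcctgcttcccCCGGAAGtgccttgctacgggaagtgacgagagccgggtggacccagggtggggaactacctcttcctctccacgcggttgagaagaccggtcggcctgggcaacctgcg
DDX21 second start: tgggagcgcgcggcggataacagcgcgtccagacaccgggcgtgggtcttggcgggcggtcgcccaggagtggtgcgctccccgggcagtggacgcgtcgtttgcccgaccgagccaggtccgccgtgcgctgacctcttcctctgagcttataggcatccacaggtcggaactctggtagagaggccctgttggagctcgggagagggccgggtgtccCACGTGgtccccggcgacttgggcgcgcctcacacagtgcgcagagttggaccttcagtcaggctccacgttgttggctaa
DHX37: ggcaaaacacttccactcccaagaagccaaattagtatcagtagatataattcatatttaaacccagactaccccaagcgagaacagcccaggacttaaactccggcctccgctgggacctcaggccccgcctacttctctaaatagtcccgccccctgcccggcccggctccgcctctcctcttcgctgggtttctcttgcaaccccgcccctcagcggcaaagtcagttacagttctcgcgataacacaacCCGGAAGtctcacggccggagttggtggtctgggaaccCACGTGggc
DDX31: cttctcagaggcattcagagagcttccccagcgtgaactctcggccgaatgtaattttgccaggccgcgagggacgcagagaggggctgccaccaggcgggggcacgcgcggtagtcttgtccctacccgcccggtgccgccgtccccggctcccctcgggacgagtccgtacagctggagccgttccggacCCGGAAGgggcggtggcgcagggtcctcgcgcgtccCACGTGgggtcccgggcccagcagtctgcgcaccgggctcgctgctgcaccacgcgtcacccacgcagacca
DDX10: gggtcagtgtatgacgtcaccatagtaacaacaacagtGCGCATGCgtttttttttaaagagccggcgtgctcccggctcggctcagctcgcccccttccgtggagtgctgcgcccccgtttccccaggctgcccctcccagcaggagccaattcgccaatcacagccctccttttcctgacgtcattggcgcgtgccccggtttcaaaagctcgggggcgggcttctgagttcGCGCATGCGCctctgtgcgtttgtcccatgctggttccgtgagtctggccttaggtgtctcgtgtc

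RefSeq windows were matched for 46 of the 51 helicases, 61 windows in all, and DDX18, DDX49, DDX52, DHX33 and DHX58 had none in the table used. CACGTG stood in 25.0% of the 24 windows of helicases called higher, in 9.38% of the 32 windows of the other tested helicases and in 7.26% of all 35116 windows of the table. CCGGAAG stood in 45.8% of the windows of helicases called higher, in 34.4% of those of the other tested helicases and in 10.3% of all windows. GCATGCGC stood in 12.5% of the windows of helicases called higher, in 6.25% of those of the other tested helicases and in 3.05% of all windows. Among the windows of all expressed genes tested, the shares were 9.45% for CACGTG, 17.9% for CCGGAAG and 5.01% for GCATGCGC. Over all 61 helicase windows they were 16.4%, 36.1% and 8.20% in the same order of motifs. These shares are descriptions of few windows, some genes have several overlapping ones, and a match is not a site shown to be used.

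Of 11 splicing helicases tested, 4 were called higher in sh-RAD51C (36.4%, against 23.2% of all genes tested), DHX8 was called lower (9.1%, against 26.2% of all genes tested) and 6 were not called. Their median log2 fold change was 0.05. DHX15, which takes apart the spent spliceosome and is the most abundant of the list, had 86.5, 87.5 and 87.2 FPKM in sh-RAD51C, against 77.5, 78.6 and 78.7 FPKM in NC. Both groups were tight and did not overlap (log2 fold change 0.15 ± 0.032 SE, adjusted p = 0.00216). DHX16, which prepares the spliceosome for its first catalytic step, had 13.4, 13.0 and 13.6 FPKM in sh-RAD51C and 9.52, 10.7 and 10.6 FPKM in NC, again without overlap (log2 fold change 0.35 ± 0.052 SE, adjusted p = 2.42e-04). DDX39A, a close paralog of the export helicase DDX39B, which is not analysed here, had 58.2, 54.6 and 55.4 FPKM in sh-RAD51C and 45.3, 46.9 and 51.1 FPKM in NC (log2 fold change 0.23 ± 0.047 SE, adjusted p = 0.00205). How reads shared with that paralog were counted is not known, so the DDX39A value is uncertain.

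DHX35, found in catalytically active spliceosomes, had 10.8, 11.0 and 12.2 FPKM in sh-RAD51C and 9.60, 9.65 and 10.5 FPKM in NC (log2 fold change 0.17 ± 0.057 SE, adjusted p = 0.0273). Its call was lost without sh-RAD51C 3 (adjusted p = 0.104), NC 1 (0.0944) or NC 2 (0.0958), and with no filter on low values (0.0859). DHX8, which releases the spliced mRNA, had 25.4, 26.4 and 28.1 FPKM in sh-RAD51C and 29.5, 28.2 and 29.1 FPKM in NC. The groups lay side by side, with sh-RAD51C 3 just under NC 2 (log2 fold change -0.12 ± 0.044 SE, adjusted p = 0.0459). The DHX8 call was lost when any 1 library other than sh-RAD51C 3 was left out, with adjusted p from 0.0620 to 0.144, and held in 6 of the 15 alternatives run. DDX23, which displaces the U1 particle, had 44.8 ± 0.329 FPKM in sh-RAD51C and 45.3 ± 0.779 FPKM in NC (log2 fold change -0.02 ± 0.034 SE, adjusted p = 0.728), a sign that median scaling turned to 0.0018. DDX42, DDX46, DDX41, DDX20 and DHX38, the remaining splicing members, had log2 fold changes of 0.05, 0.04, 0.03, 0.08 and 0.05 with overlapping groups.

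Of 8 helicases of RNA export, translation and decay, 3 were called higher in sh-RAD51C (37.5%, against 23.2% of all genes tested). None of the 8 was called lower (against 26.2% of all genes tested). Their median log2 fold change was 0.09. DDX1, a subunit of the tRNA ligase complex, had 52.0, 51.8 and 53.4 FPKM in sh-RAD51C and 42.1, 43.8 and 44.9 FPKM in NC (log2 fold change 0.26 ± 0.037 SE, adjusted p = 1.59e-04). DHX34, a factor of nonsense-mediated decay, had 6.24, 6.95 and 6.51 FPKM in sh-RAD51C and 5.34, 5.33 and 5.62 FPKM in NC (log2 fold change 0.23 ± 0.056 SE, adjusted p = 0.00490). In both the groups were apart. DDX3X, which helps ribosomes start on structured messages, was the most abundant of the list. It had 88.7, 90.9 and 94.3 FPKM in sh-RAD51C and 88.9, 86.0 and 87.1 FPKM in NC, with overlapping groups (log2 fold change 0.06 ± 0.036 SE, adjusted p = 0.163). DDX6, a translational repressor of processing bodies, had 31.8, 32.2 and 33.0 FPKM in sh-RAD51C and 33.8, 33.2 and 34.6 FPKM in NC. Its groups came within a small gap without overlap, and it was not called (log2 fold change -0.06 ± 0.036 SE, adjusted p = 0.175). DHX36, which unfolds G-quadruplexes, had a log2 fold change of 0.11 (adjusted p = 0.134) and was called without library sh-RAD51C 1 (log2 fold change 0.15, adjusted p = 0.0438). DHX29, a scanning factor, had 9.33 ± 0.624 FPKM in sh-RAD51C and 9.29 ± 0.267 FPKM in NC (SD, n = 3 each).

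The neighbours DDX19A and DDX19B, near-identical helicases that free mRNA at the nuclear pore, had estimates of opposite sign. DDX19A (chr16:70346829-70373383, plus strand) had 12.5, 13.6 and 12.6 FPKM in sh-RAD51C and 10.0, 10.4 and 11.1 FPKM in NC, and was called higher (log2 fold change 0.27 ± 0.053 SE, adjusted p = 0.00131). DDX19B (chr16:70289663-70335283, plus strand) had 5.65, 6.31 and 6.44 FPKM in sh-RAD51C and 6.58, 6.83 and 7.43 FPKM in NC. It was not called, although its groups did not overlap (log2 fold change -0.16 ± 0.063 SE, adjusted p = 0.0592). DDX19A made up 68.8, 68.4 and 66.3% of the pair's FPKM in sh-RAD51C libraries 1, 2 and 3, against 60.4, 60.3 and 59.9% in NC libraries 1, 2 and 3. The pair's sum was 19.0 ± 0.905 FPKM in sh-RAD51C and 17.5 ± 0.982 FPKM in NC (SD, n = 3 each), and these sums overlapped between the groups, whereas the shares did not. In GENCODE 29, 26.9% of the exon bases of DDX19A and 19.7% of those of DDX19B overlap another gene, and how reads common to both were split is not known, so both values are uncertain.

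The other pairs were read in the same way. DDX50 is the neighbouring paralog of DDX21 on chromosome 10 and had 5.22, 5.67 and 5.53 FPKM in sh-RAD51C and 5.61, 5.64 and 5.32 FPKM in NC. It was not called (log2 fold change -0.01 ± 0.055 SE, adjusted p = 0.877), and its sign was not stable: it was 0.01 after median scaling, 0.02 after quantile normalization, 0.02 without sh-RAD51C 1 and 0.0014 without NC 2. DDX21 held 92.2, 92.4 and 92.5% of that pair's FPKM in sh-RAD51C libraries 1, 2 and 3, against 87.8, 87.7 and 89.3% in NC libraries 1, 2 and 3. DDX5 held 79.8, 78.7 and 79.1% of the sum of DDX5 and DDX17 in sh-RAD51C, against 76.0, 76.4 and 76.6% in NC. The groups did not overlap in any of these 3 shares. The shares are computed from the levels of the same genes, so they are no further evidence. Among all single genes tested, every sh-RAD51C library lay above every NC library for 27.6% and below for 30.8%. Shares of other gene pairs were not computed.

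**Figure D3:**
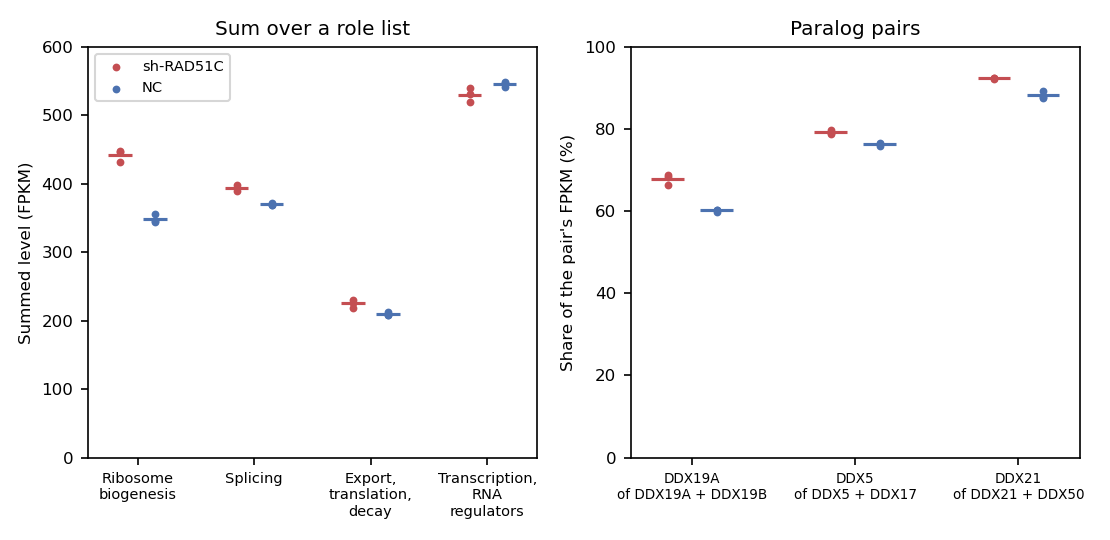
The left panel gives the summed FPKM of 4 role lists and the right panel the share of the first gene in the summed FPKM of 3 paralog pairs, with 1 point per library, a line at the group mean and sh-RAD51C left of NC. Ribosome biogenesis sums stand at 432 to 448 FPKM in sh-RAD51C and 344 to 356 FPKM in NC, and all 3 shares are higher in sh-RAD51C.

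DDX5 and DDX17 are paralogs that act as transcriptional coregulators and in splicing and microRNA processing. In NC they were the most and the third most abundant of the 46 DDX and DHX genes tested. DDX17 had 76.6, 81.4 and 81.8 FPKM in sh-RAD51C, against 99.6, 97.8 and 94.1 FPKM in NC. Every sh-RAD51C library was well below every NC library, and DDX17 fell by 17.7% (log2 fold change -0.28 ± 0.039 SE, adjusted p = 1.40e-04), the largest fall among the 46 tested helicases. DDX5 had 303, 301 and 310 FPKM in sh-RAD51C and 315, 317 and 308 FPKM in NC, with overlapping groups and no call (log2 fold change -0.04 ± 0.034 SE, adjusted p = 0.352). Its exons share 9.1% of their bases with other genes, CEP95 on the opposite strand among them. The DDX17 window, chr22:38506262-38506561 on the minus strand, is shown because it belongs to the clearest fall, and it holds none of the 3 motifs. The other helicases called lower did hold motifs, CACGTG for DHX40 and CCGGAAG for DHX8, so a lack of motifs was not shared by the falls.
DDX17: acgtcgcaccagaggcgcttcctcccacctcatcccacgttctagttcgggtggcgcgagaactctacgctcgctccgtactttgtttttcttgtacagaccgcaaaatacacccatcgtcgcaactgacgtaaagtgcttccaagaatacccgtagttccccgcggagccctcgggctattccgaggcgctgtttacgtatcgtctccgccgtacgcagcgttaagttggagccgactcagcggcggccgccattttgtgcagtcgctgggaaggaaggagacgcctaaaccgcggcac

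DHX9, an abundant nuclear helicase that resolves RNA and RNA-DNA hybrid structures, had 140, 148 and 149 FPKM in sh-RAD51C and 134, 132 and 140 FPKM in NC. It was called higher (log2 fold change 0.11 ± 0.038 SE, adjusted p = 0.0356) although sh-RAD51C 1 and NC 3 nearly met. The DHX9 call was lost without sh-RAD51C 2 (adjusted p = 0.107), sh-RAD51C 3 (0.0982), NC 1 (0.116) or NC 2 (0.142). It was also lost after quantile normalization (log2 fold change 0.06, adjusted p = 0.246), with no filter (0.0773) and with no variance trend (0.0871). The call held in 8 of the 15 alternatives run. The summed level of DDX5, DDX17 and DHX9 was 530 ± 10.4 FPKM in sh-RAD51C and 546 ± 3.75 FPKM in NC (SD, n = 3 each).

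Among helicases of mitochondrial ribosome assembly, DHX30 had 20.2, 20.6 and 20.0 FPKM in sh-RAD51C and 18.4, 17.7 and 19.2 FPKM in NC and was called higher (log2 fold change 0.13 ± 0.042 SE, adjusted p = 0.0269). The call was lost without sh-RAD51C 2 (adjusted p = 0.0789), NC 1 (0.0741) or NC 2 (0.125). DDX28 had the same log2 fold change of 0.13 with overlapping groups and was not called (adjusted p = 0.0852), and 22.5% of its exon bases lie across from DUS2. DHX40, a helicase of little-known function, had 33.2, 32.7 and 31.2 FPKM in sh-RAD51C and 34.7, 35.6 and 35.9 FPKM in NC. It was called lower, with every sh-RAD51C library under every NC library (log2 fold change -0.13 ± 0.038 SE, adjusted p = 0.0165). That call was lost without sh-RAD51C 3 (adjusted p = 0.0559), NC 2 (0.0592) or NC 3 (0.0573).

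DDX11 is a DNA helicase of sister chromatid cohesion rather than an RNA helicase, and near-identical copies elsewhere in the genome make its value uncertain. It had 5.12, 6.28 and 6.15 FPKM in sh-RAD51C and 5.72, 5.86 and 5.99 FPKM in NC, so that library sh-RAD51C 1 lay below and the other sh-RAD51C libraries above all NC libraries (log2 fold change -0.0050 ± 0.070 SE, adjusted p = 0.961). Without sh-RAD51C 1 its log2 fold change was 0.07 (adjusted p = 0.250). DHX57, DHX32 and DDX59 had overlapping groups and log2 fold changes of -0.04, 0.05 and 0.02.

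DDX60L, an interferon-inducible member, had 2.20, 2.72 and 2.51 FPKM in sh-RAD51C and 1.70, 2.23 and 2.05 FPKM in NC. The groups overlapped slightly, and it narrowly missed a call (log2 fold change 0.22 ± 0.084 SE, adjusted p = 0.0501). It was called in 7 of 14 alternatives, with adjusted p from 0.0132 to 0.193 over all of them, among these without sh-RAD51C 1 (0.0266), without NC 2 (0.0336) and after median scaling (0.0323) or quantile normalization (0.0132). The related sensors left out by the rule, DDX58 and DDX60, were called lower: DDX58 averaged 5.83 ± 0.235 FPKM in sh-RAD51C and 7.34 ± 0.276 FPKM in NC (adjusted p = 0.00105), and DDX60 averaged 1.22 ± 0.0885 FPKM in sh-RAD51C and 1.79 ± 0.121 FPKM in NC (adjusted p = 0.00209; SD, n = 3 each).

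The 5 helicases under the filter had few reads. DDX43, a cancer-testis antigen, had 4, 1 and 0 inferred reads in sh-RAD51C libraries 1, 2 and 3, against 12, 8 and 10 in NC libraries 1, 2 and 3. Its groups did not overlap, but 20.2% of its exon bases lie across from other genes and the counts are small. DHX58, a regulator of RNA sensing, had 6, 10 and 7 reads in sh-RAD51C and 7, 8 and 9 in NC. The germ cell helicases DDX25, DDX4 and DDX53 had at most 5 reads in any library, with DDX53 listed at 0 in all sh-RAD51C libraries. A difference of DHX58, DDX25, DDX4 or DDX53 was not detectable at this depth.

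Levels spanned a wide range. Per unit of transcript length, DDX5 averaged 305 ± 4.64 FPKM in sh-RAD51C and 313 ± 4.80 FPKM in NC, and DDX60L, the lowest tested, 2.48 ± 0.261 FPKM in sh-RAD51C and 1.99 ± 0.272 FPKM in NC (SD, n = 3 each). DDX5, DHX9, DDX17, DDX3X and DHX15 together held 41.9 to 45.8% of the summed FPKM of all 51 genes in a library. The median level of the tested helicases was 17.3 FPKM against 8.71 FPKM for all genes tested, and 36 of the 46 lay above 8.71 FPKM. Neighbours in the NC order often could not be separated: in 30 of 50 adjacent pairs the NC values overlapped. The first 6 of that order, DDX5, DHX9, DDX17, DDX3X, DHX15 and DDX42, did not overlap with the gene that followed. Some ranks differed between the groups: DDX21 stood at rank 6 in sh-RAD51C and rank 12 in NC, and DDX17 at rank 5 in sh-RAD51C and rank 3 in NC.

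**Figure D4:**
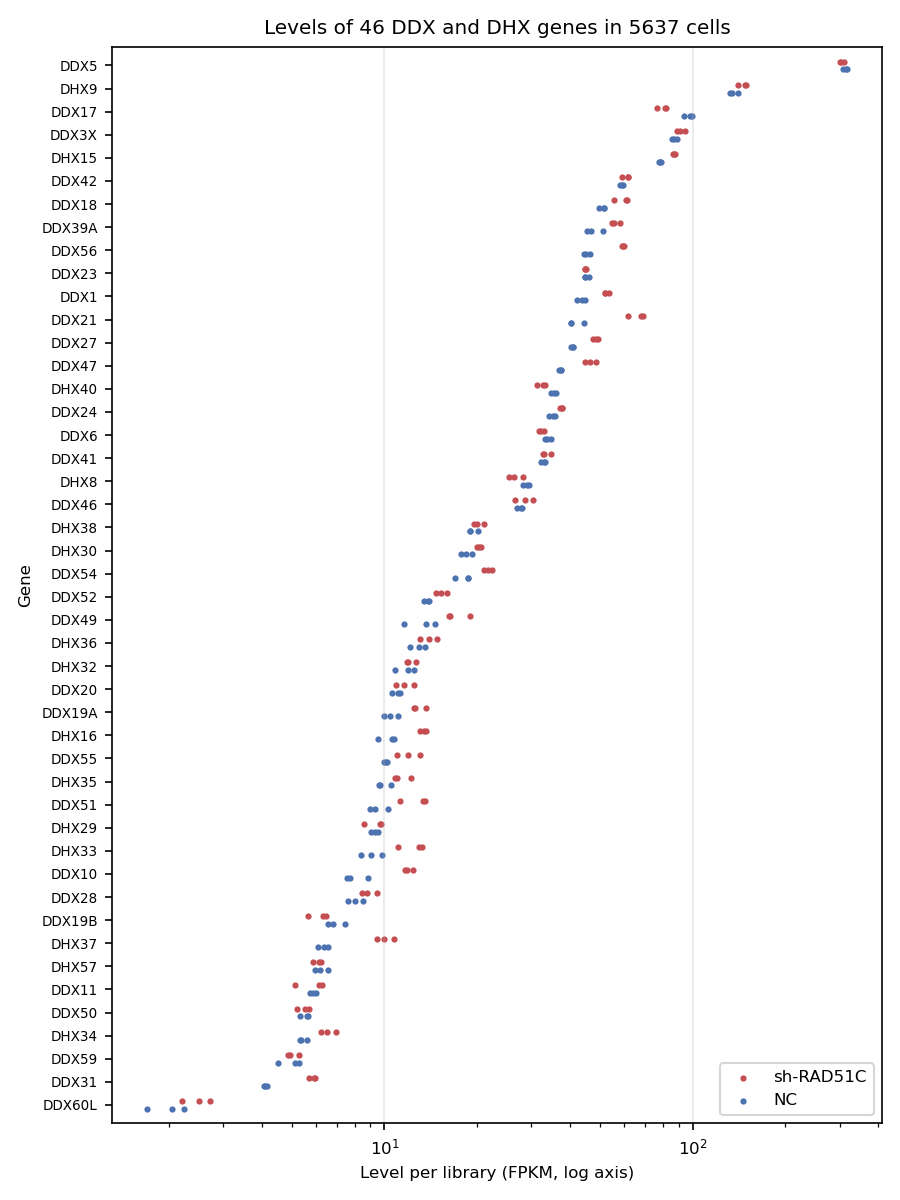
Levels in FPKM on a log axis for the 46 helicases tested, ordered by NC mean, with 1 point per library and the sh-RAD51C row drawn above the NC row of each gene. DDX5 lies near 300 FPKM and DDX60L between 1.70 and 2.72 FPKM, and for DDX21, DHX37 and DDX10 the colours are separated by a wide gap.

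Depth behind the tested helicases was 527 inferred reads at the lowest (DDX60L) and 48879 at the highest (DDX5), with a median over genes of 3181. The median coefficient of variation within a group was 4.07% in sh-RAD51C and 2.94% in NC, above the median counting errors of 1.74% in sh-RAD51C and 1.83% in NC. Counting error covers sampling of reads only. The libraries did not scatter evenly: sh-RAD51C 1 was the lowest of its group in 30 of the 46 helicases, and NC 3 the highest of its group in 25. Among the 24 called higher, sh-RAD51C 1 was the lowest sh-RAD51C library in 15 and NC 3 the highest NC library in 18.

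Related genes whose symbols fall outside the rule were counted for context. The rule reads symbols only, so some of them, such as EIF4A2 and EIF4A3, may belong to the same protein family. Of 22 other RNA helicases 21 were found and 18 tested. Of these, 4 were called higher (22.2%, against 23.2% of all genes tested) and 6 were called lower (33.3%, against 26.2% of all genes tested), shares near those of all genes, with -0.05 as the median log2 fold change. The 3 with the smallest p were MOV10, IFIH1 and SUPV3L1. MOV10, a helicase of RNA silencing, averaged 16.6 ± 0.231 FPKM in sh-RAD51C and 20.8 ± 0.421 FPKM in NC (log2 fold change -0.31). IFIH1, the RNA sensor also called MDA5, averaged 3.01 ± 0.226 FPKM in sh-RAD51C and 4.37 ± 0.211 FPKM in NC (log2 fold change -0.42). SUPV3L1, a helicase that takes part in RNA degradation in mitochondria, averaged 13.6 ± 0.555 FPKM in sh-RAD51C and 11.4 ± 0.307 FPKM in NC (log2 fold change 0.23). Of 33 partner proteins of helicases, all tested, 9 were called higher (27.3%, against 23.2% of all genes tested) and 2 lower (6.1%, against 26.2% of all genes tested), with 0.04 as the median log2 fold change. GPATCH4, a nucleolar G-patch protein, had 35.8, 34.0 and 35.4 FPKM in sh-RAD51C and 20.0, 19.6 and 23.0 FPKM in NC (log2 fold change 0.72 ± 0.055 SE, adjusted p = 1.66e-06). ALYREF, the export adaptor that works with the DDX39 helicases, averaged 229 ± 6.12 FPKM in sh-RAD51C and 160 ± 8.60 FPKM in NC (log2 fold change 0.52). PDCD4, an inhibitor of the translation helicase EIF4A1, which is not analysed here, averaged 5.80 ± 0.264 FPKM in sh-RAD51C and 9.38 ± 0.289 FPKM in NC (log2 fold change -0.61). These 6 were called in the same fit (SD, n = 3 each).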

How the data were processed

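The values are FPKM (fragments or reads scaled by gene length and library size), calculated by the authors and deposited as 1 table with a column for each of the 6 libraries; 0 other sample columns were left unused. RNA came from TRIzol extraction and libraries from the VAHTS Universal V6 kit, per the labels' protocols. Per the submitters' processing notes the genome was hg38, with R 3.2.0 and DESeq2 listed but no role given. The sources used here name no aligner, counting tool, strand setting or annotation (not given), so overlapping, antisense and near-identical genes are uncertain.

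From these values, log2(FPKM + 1) was compared between 3 sh-RAD51C and 3 NC libraries with limma 3.58.1 in R 4.3.3 (empirical Bayes with trend, no covariate) over the 11152 genes whose mean reached 1 FPKM, and p-values were adjusted by Benjamini-Hochberg over all of them, with 0.05 as threshold. The scripts were tested on simulated data. FPKM steps gave whole reads, within 0.001 reads, for 100% of these genes, which served to describe depth and for a voom fit. Alternatives were other pseudocounts (0.1 and 0.5 FPKM), filters, scalings, no trend, a replicate block and leaving out each library. Figures used matplotlib 3.10.9.

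The members, role lists, partner lists and motifs were chosen with earlier results of these data known. Genes named by rule were RAD51C, the 8 largest rises and falls, the most abundant member of each role list, both genes of each paralog pair and the 3 genes with the smallest p of the 2 outside lists. Other members were named after their values were seen, to account for all 51. Gene positions are from GENCODE 29 (GRCh38, the same assembly as hg38) and promoter windows from RefSeq. The gene lengths inferred from the FPKM differed from the GENCODE 29 exon bases: 1817 against 5040 for DDX47, and 3262 against 7879 for DDX19A. The exon overlaps given may therefore not hold for the annotation that was counted.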

Additional observations from a re-analysis of the deposited data

How the results depend on the processing

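Of 15 alternatives, 14 were planned and 1, voom on inferred reads, was chosen after seeing the data. Helicases called higher numbered 24 as reported and 19 to 25 over the alternatives, and 19 of the 27 calls (18 higher and DDX17) held in all 15. Of all genes tested, 23.2% were called higher as reported. That share was 10.4% with no filter, 28.3% with a stricter filter of 5 FPKM and 19.2% to 25.7% in the other alternatives. DDX43 was called lower with no filter, and DDX60L was called higher in 7 of 14 alternatives. The calls that did not hold were DDX24, DDX52, DHX8, DHX9, DHX30, DHX35, DHX40 and DDX31, whose mean was under the stricter filter of 5 FPKM. Helicases called lower numbered 3 as reported and 1 to 2 when a library was left out, 1 without NC 2 or NC 3; voom gave 4. The median log2 fold change was 0.11 without a filter and 0.11 to 0.16 when a library was left out; it was 0.15 after median scaling and 0.11 after quantile normalization. Among genes named by rule, signs reversed for the uncalled DDX11 (0.01 with median scaling, 0.02 with quantile normalization, -0.05 to 0.07 when a library was left out), DDX50 (0.01 with median scaling, 0.02 with quantile normalization, -0.03 to 0.02 when a library was left out) and DDX23 (0.0018 with median scaling). Among the other members they reversed for the uncalled DHX29, DDX59 and DHX32, which went down to -0.02, -0.04 and -0.0028. Their cause was not tested. Over the 31 genes named by rule and tested, 429 of 462 values kept direction and side of the threshold, 15 lost and 9 gained a call.

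With the replicate number as a block, 24 helicases were called higher and 3 lower, and 5569 genes in all against 5511. Same-numbered libraries correlated at 0.190, 0.026 and 0.091 in their deviations from the group means, so the numbers were not taken to pair libraries. DDX24 and DHX8 lost and DDX19B and DDX60L gained a call under the block.

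The FPKM of each tested helicase rests on 527 or more reads, and with 3 libraries per group, differences near 10% were called for some genes (DHX30) and not for others (DDX28). Relative values cannot show a change common to all RNA.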
